A study of Oryza sativa with 12 samples.

Results

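The long non-coding RNA (lncRNA) response to cold was described in booting leaves of Kongyu131, a japonica rice cultivar (Oryza sativa) of northeast China, from 6 of the 12 libraries of a larger study. The 3 cold libraries came from Kongyu131 plants kept for 13 days at 17 °C in an incubator whose light was on for 16 h and off for 8 h a day, and the 3 control libraries from Kongyu131 plants that the labels call control. The labels attach the incubator protocol to the control libraries as well, so where and at what temperature the controls stood is not given separately, and temperature and incubator cannot be told apart. Plants grew in a natural environment and were at the booting stage, when the young panicle is still wrapped in the flag leaf sheath. One leaf was taken per bucket, and nothing states whether the replicates were separate plants or lots of plants, and the p-values below take as error the spread among the libraries, which may be technical. The libraries were chosen by their labels alone, and all listed lncRNAs with a mean of at least 0.1 FPKM over the 6 libraries were tested, 1315 of 1485 (740 lincRNAs and 575 antisense lncRNAs). FPKM counts the sequenced fragments of a transcript scaled to its length and to all fragments mapped in the library. The other 170 lay below that mean, and 75 of them were listed at 0 in all 6 libraries.

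LncRNAs are transcripts without a recognised protein product. Long intergenic ncRNAs (lincRNAs) lie between protein-coding genes, and antisense lncRNAs come from the DNA strand facing that of another gene and can act on that gene's transcription, as the cold-induced COOLAIR antisense transcripts do at the flowering repressor gene FLC in Arabidopsis. Rice is a chilling-sensitive crop, and the booting stage is known for its sensitivity because low temperature then disturbs pollen development. The deposited tables pair the identifiers with 0 gene symbols, and 0 identifiers matched the supplied rice gene table, so no function, host gene or position is given for a transcript, and the leaf label could not be checked against marker genes.

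Cold and control libraries separated on the first principal component, which held 37.9% of the variance of log2(FPKM + 0.1). Cold replicates 1 and 2 stood at −22.95 and −23.08 on it, cold replicate 3 stood nearer the controls at −9.30, and the controls stood at 19.65, 18.14 and 17.56. Pearson correlations across transcripts, which are not independent replicates, were 0.850 to 0.883 between cold libraries, 0.842 to 0.879 between control libraries and 0.778 to 0.831 between the groups. The cold libraries held 479, 467 and 531 lncRNAs at 1 FPKM or more, and the control libraries held 574, 525 and 500, so the groups overlapped (exact two-sided permutation test, p = 0.3, n = 3 each). The number of lncRNAs above 0 was lower in every cold library (1361, 1363 and 1363) than in any control library (1364, 1372 and 1373), with p = 0.1 by the same exact permutation test, the smallest p that 3 against 3 libraries can give. Of those above 0, 110 to 136 per library stood under 0.001 FPKM, so the number does not measure detection. The median lncRNA stood at 0.516, 0.500 and 0.586 FPKM in cold libraries and at 0.675, 0.586 and 0.534 FPKM in control libraries (exact permutation p = 0.3). No read numbers were given with the values, and the sequencing depth is unknown.

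**Figure D1:**
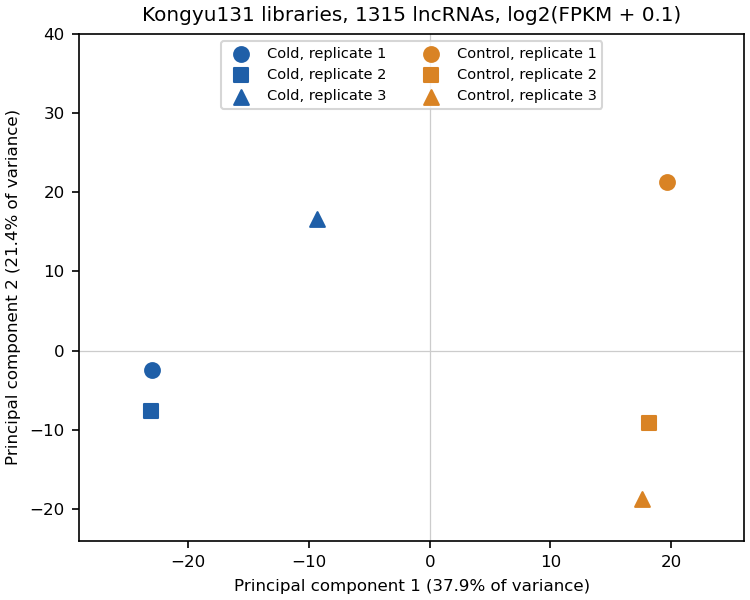
Positions of the 6 Kongyu131 libraries on the first and second principal components of log2(FPKM + 0.1) over 1315 lncRNAs, with cold libraries in blue, control libraries in orange and the symbol giving the replicate. The groups lie on opposite sides of the first component, with cold replicate 3 at −9.30, closest to the controls, and control replicate 1 at 21.23 on the second component, apart from the other controls at −9.11 and −18.70.

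In the cold, 44 lncRNAs (3.35% of the 1315 tested) were called changed. Of these, 12 rose (0.913%) and 32 fell (2.43%) by limma at a Benjamini-Hochberg adjusted p under 0.05. The groups did not overlap for any of these 44, and each changed at least 2-fold on the log2(FPKM + 0.1) scale. On that scale the changes of the 3 transcripts listed at 0 in a whole group have no meaning as folds. With these 3 included, 5 falls and 2 rises lay under 0.1 FPKM in every library of the lower group. The size of their changes hangs on the added 0.1 FPKM. The rises had a median log2 change of 2.83 (range 1.65 to 5.39) and 8 of the 12 were antisense lncRNAs, beside 575 of the 1315 tested. The falls had a median log2 change of −2.35 (range −5.28 to −1.29) and 25 of the 32 were lincRNAs, beside 740 of the 1315 tested. With median-ratio scaling 10 of these 25 lincRNA falls and 6 of the 7 antisense falls were still called. These are bulk leaf libraries, in which fewer cells of a type and less RNA per cell cannot be told apart.

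The balance of rises and falls moved with the scaling between libraries. With median-ratio scaling 14 rose and 16 fell, and with quantile normalization 8 rose and 7 fell. Across the 1315 lncRNAs the median log2 change was −0.14 on the values as deposited. Under both scalings it was 0.00, which largely follows from the scaling, since each brings the libraries to a common level. The number of calls also changed when single libraries were left out. Each of these fits has 1 library fewer, and how far that alone changes the number was not tested. The 44 became 6, 3 and 55 without cold replicates 1, 2 and 3, and 7, 2 and 5 without control replicates 1, 2 and 3.

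**Figure D2:**
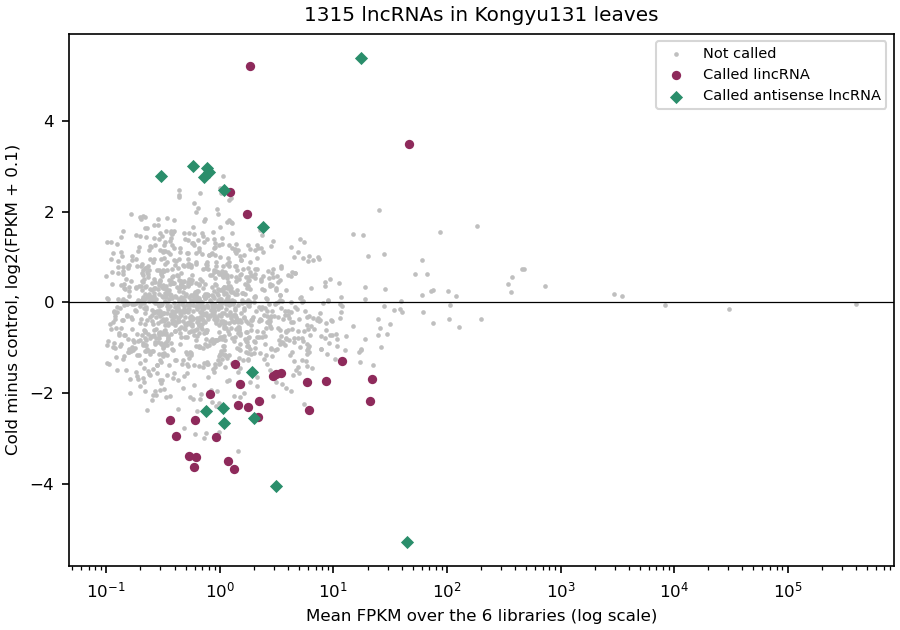
Log2 change (cold minus control, on log2(FPKM + 0.1)) of 1315 lncRNAs against their mean FPKM over the 6 libraries on a log axis, with called lincRNAs as purple circles, called antisense lncRNAs as green diamonds and the others in grey. Calls below 0 (32) are more numerous than calls above 0 (12), and the antisense lncRNAs LNC_001018 and LNC_000185 hold the highest and the lowest position.

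Among the antisense lncRNAs that rose, LNC_001018 (locus XLOC_038036) had the largest change. It stood at 45.6, 24.4 and 32.3 FPKM in cold libraries, against 1.94, 0.809 and 0.166 FPKM in control libraries. Every cold value lay far above every control value, while the control values themselves were spread widely (log2 change 5.39, SE 0.685, limma adjusted p = 0.0138). LNC_000688 (XLOC_025675) was at 1.40, 2.53 and 1.85 FPKM in cold libraries and at 0.163, 0.305 and 0.315 FPKM in control libraries, 5.59-fold higher on the log2(FPKM + 0.1) scale (limma adjusted p = 0.0253). LNC_000123 (XLOC_006325) was at 1.30, 1.22 and 1.76 FPKM in cold libraries, against 0, 0.236 and 0.120 FPKM in control libraries. LNC_000287 (XLOC_013025) was at 0.650, 2.16 and 1.62 FPKM in cold libraries, against 0.243, 0 and 0.112 FPKM in control libraries. LNC_001017 (XLOC_037988) was at 0.805, 1.28 and 1.95 FPKM in cold libraries, against 0, 0.182 and 0.183 FPKM in control libraries. These last 3 shared a pattern, at 0.650 to 2.16 FPKM in cold leaves and at 0 to 0.243 FPKM in control leaves, with limma adjusted p-values of 0.0390, 0.0488 and 0.0456. The smallest rise, LNC_000032 (XLOC_001658), named after its values were seen, was at 3.99, 4.37 and 2.69 FPKM in cold libraries and at 0.967, 1.11 and 1.17 FPKM in control libraries. The 8 antisense rises were all called with median-ratio scaling and 5 of them with quantile normalization. Without cold replicate 1 or 2 or control replicate 2 none of the 8 was called by limma (adjusted p from 0.0608 to 0.181), 3 were called without cold replicate 3 (0.0249 to 0.0987), 2 without control replicate 1 (0.0249 to 0.0804) and 1, LNC_001018, without control replicate 3 (0.0396 to 0.148).

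The 4 lincRNAs that rose included the transcript with the lowest p of all. LNC_001213 (XLOC_047408) was at 2.76, 3.26 and 5.16 FPKM in cold libraries and listed at 0 in every control library (limma adjusted p = 0.0011). It was the 1 lncRNA of the 1315 listed at 0 in every control library and at 1 FPKM or more in every cold one. A listed 0 may stand for a failed estimate. LNC_000523 (XLOC_019618) was the most abundant lncRNA that rose, at 62.1, 65.1 and 126 FPKM in cold libraries, against 11.7, 6.05 and 4.78 FPKM in control libraries. Cold replicate 3 was the highest library, and all cold values lay above all control values (84.4 ± 36.2 in cold and 7.49 ± 3.66 FPKM in control leaves, SD, n = 3 each, log2 change 3.50, SE 0.420, limma adjusted p = 0.0120). LNC_001257 (XLOC_049699) was at 2.90, 2.55 and 1.00 FPKM in cold libraries and at 0.361, 0.336 and 0.173 FPKM in control libraries. LNC_000038 (XLOC_002494) was at 3.47, 3.37 and 1.66 FPKM in cold libraries and at 0.459, 0.553 and 0.930 FPKM in control libraries. In both of these, cold replicate 3 was the lowest of the cold libraries and still above every control. LNC_001213 was called without any 1 of the 6 libraries (limma adjusted p from 0.0108 to 0.0244). Its controls were all listed at 0, so leaving out a control could not change its log2 change of 5.21. They also add no spread to its SE of 0.363. Among lncRNAs with a mean of at least 1 FPKM its SE was 0.712 (limma adjusted p = 0.0147). The adjusted p of the falling LNC_000185 was lower there, at 0.00417 by limma. LNC_000523 was lost without cold replicate 2 or control replicate 2 or 3 (0.0682, 0.0768 and 0.0679), and the other two were called without cold replicate 3 and lost without each of the remaining libraries (0.0946 to 0.175). With median-ratio scaling 3 of the 4 were called and with quantile normalization 2, LNC_001213 and LNC_000523.

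**Figure D3:**
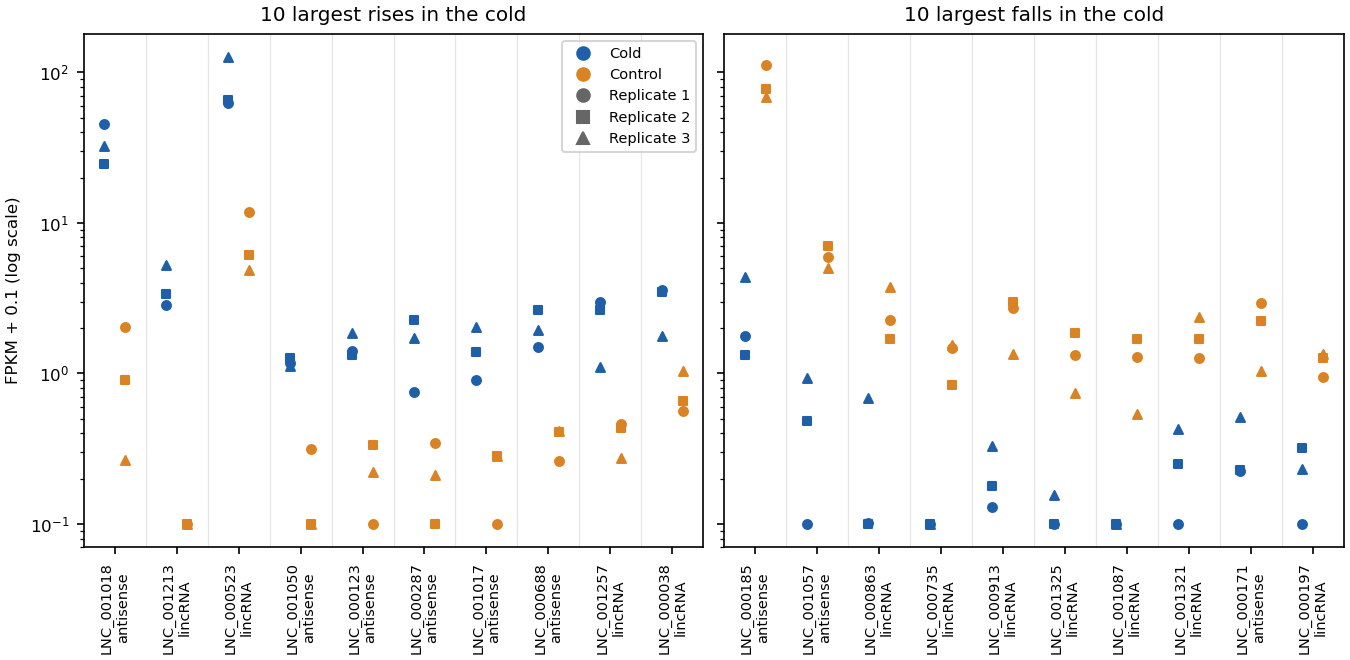
FPKM + 0.1 on a log axis in each cold (blue, left) and control (orange, right) library, with the symbol giving the replicate, for the 10 largest rises and 10 largest falls among called lncRNAs with a mean of at least 1 FPKM in the higher group. No cold value overlaps a control value of the same transcript, and points at 0.1 are at or near 0 FPKM.

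The falls were led by an antisense lncRNA. LNC_000185 (XLOC_009332) was at 1.68, 1.23 and 4.26 FPKM in cold libraries, against 111.8, 77.9 and 68.5 FPKM in control libraries, and among antisense lncRNAs it ranked 3 by mean level over the 6 libraries. Cold replicate 3 was the highest of the cold libraries and still far below every control (log2 change −5.28, SE 0.456, limma adjusted p = 0.0027). LNC_001057 (XLOC_040119) was at 0, 0.383 and 0.837 FPKM in cold libraries and at 5.79, 6.91 and 4.91 FPKM in control libraries (limma adjusted p = 0.0416). LNC_000171 (XLOC_008372) was at 0.126, 0.128 and 0.413 FPKM in cold libraries, against 2.82, 2.13 and 0.935 FPKM in control libraries. LNC_001374 (XLOC_053697) was at 0.169, 0.342 and 0.369 FPKM in cold libraries, against 2.32, 1.41 and 1.84 FPKM in control libraries. For these 4 transcripts cold replicate 3 was the highest of the cold libraries. LNC_000185 was called without any 1 library (limma adjusted p from 0.00185 to 0.0396). All 7 antisense falls were called without cold replicate 3, whereas LNC_000185 alone was called without cold replicate 2 (limma adjusted p up to 0.161 for the others) or without control replicate 1, 2 or 3 (up to 0.111, 0.157 and 0.148). Without cold replicate 1, LNC_000185 and LNC_001057 were called and the others were not (up to 0.123). With median-ratio scaling 6 of the 7 were called and with quantile normalization 2, LNC_000185 and LNC_001374.

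Of the 25 lincRNAs that fell, several were listed at or near 0 in the cold. LNC_000735 (XLOC_027944) was listed at 0 in every cold library and stood at 1.38, 0.738 and 1.44 FPKM in control libraries (limma adjusted p = 0.0120). LNC_000598 (XLOC_022459), named because it was the only other lncRNA listed at 0 in every cold library and above 0 in every control library, stood at 1.63, 0.424 and 0.411 FPKM in control libraries (limma adjusted p = 0.0488). LNC_001325 (XLOC_052331) was at 0, 0 and 0.0565 FPKM in cold libraries, against 1.23, 1.76 and 0.646 FPKM in control libraries. These levels were low in control leaves too, below 2 FPKM in every library. LNC_000913 (XLOC_033792) was at 0.0290, 0.0779 and 0.231 FPKM in cold libraries and at 2.64, 2.90 and 1.24 FPKM in control libraries, 11.3-fold lower on the log2(FPKM + 0.1) scale (limma adjusted p = 0.0247). LNC_001321 (XLOC_052271) was at 0, 0.151 and 0.326 FPKM in cold libraries, against 1.17, 1.61 and 2.28 FPKM in control libraries. LNC_000197 (XLOC_010007) was at 0, 0.219 and 0.133 FPKM in cold libraries, against 0.846, 1.17 and 1.24 FPKM in control libraries.

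A second set of falling lincRNAs stayed well above 0 in the cold. The following 3, with a mean of at least 10 FPKM over the 6 libraries, were picked with their values known. LNC_000318 (XLOC_013824) was at 4.56, 5.50 and 15.5 FPKM in cold libraries, against 30.3, 34.9 and 34.5 FPKM in control libraries. LNC_000693 (XLOC_025973) was at 7.23, 10.5 and 14.3 FPKM in cold libraries, against 34.3, 32.4 and 33.6 FPKM in control libraries. LNC_001335 (XLOC_052826) was at 6.56, 6.40 and 7.64 FPKM in cold libraries, against 14.7, 18.97 and 17.1 FPKM in control libraries. Their control values lay close together, and cold replicate 3 was the cold library nearest the controls in each (4.49-fold, 3.23-fold and 2.44-fold lower, limma adjusted p = 0.0488, 0.0390 and 0.0416). That library was the one nearest the controls for 21 of the 32 falls, against 7 for cold replicate 1 and 4 for cold replicate 2. Among the 12 rises it was the nearest for 4, against 6 and 2. Of all 234 lncRNAs lower in the cold without overlap, called or not and of any fold, it was the nearest for 136, against 54 and 44. Of all 118 higher without overlap it was the nearest for 43, against 43 and 32. All of these counts are on the values as deposited, without a scaling between libraries. Without cold replicate 3, 17 of the 25 lincRNA falls were called. Of the 25, limma called 2 when cold replicate 1 was left out and 1 when cold replicate 2 was. It called 1, 0 and 2 of them when control replicates 1, 2 and 3 were left out in turn (highest adjusted p from 0.124 to 0.176). With median-ratio scaling 10 of the 25 were called and with quantile normalization 5. The 13 lincRNA falls not named here had log2 changes from −2.58 to −1.36, with means of 0.0247 to 3.81 FPKM in cold and 0.700 to 13.3 FPKM in control leaves, and the 2 antisense falls not described, LNC_000047 and LNC_000151, had log2 changes of −1.54 and −2.55.

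With the called transcripts included, 66 lncRNAs were at least 2-fold higher in cold leaves with no overlap between the groups (5.02% of those tested) and 151 were at least 2-fold lower (11.5%). Among the uncalled was the lincRNA LNC_000726 (XLOC_027594), at 1.78, 3.19 and 0.784 FPKM in cold libraries and at 0.230, 0.399 and 0 FPKM in control libraries (limma adjusted p = 0.0723). The lincRNA LNC_000496 (XLOC_019302) was at 0, 0.205 and 0 FPKM in cold libraries and at 0.532, 2.96 and 0.683 FPKM in control libraries (limma adjusted p = 0.0696). Neither was called. These counts moved with scaling too, to 90 higher and 108 lower with median-ratio scaling and to 91 and 102 with quantile normalization.

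By class, lincRNAs had a median log2 change of −0.24 and antisense lncRNAs of −0.05, beside −0.14 over all lncRNAs tested. Among lincRNAs 60.1% had a change below 0 and among antisense lncRNAs 53.2%, beside 57.1% over all. LincRNAs were called higher in 4 of 740 and lower in 25 of 740, antisense lncRNAs higher in 8 of 575 and lower in 7 of 575. The classes also differed in level, with a median over transcripts of 0.898 FPKM for lincRNAs and 0.611 FPKM for antisense lncRNAs, and whether level plays a part in these counts was not tested. By level, the median log2 change was −0.09 at means of 0.1 to 0.3 FPKM, −0.08 at 0.3 to 1, −0.17 at 1 to 3, −0.45 at 3 to 10 (136 lncRNAs, 70.6% below 0) and −0.08 above 10 FPKM. These medians and shares are on the values as deposited, without a scaling between libraries.

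Of the 5 most abundant lincRNAs and the 5 most abundant antisense lncRNAs, LNC_000185 alone was called. LNC_000712 (XLOC_026914), which held 85.7% to 91.7% of the summed FPKM in cold libraries and 86.4% to 89.9% in the control libraries, was at 260633, 614704 and 354424 FPKM in cold libraries and at 349316, 399150 and 432054 FPKM in control libraries. The cold values bracketed all control values. LNC_001334 (XLOC_052786) was at 15592, 35301 and 35688 FPKM in cold libraries, against 16560, 41258 and 38323 FPKM in control libraries, and replicate 1 of each group was the low one. LNC_000283 (XLOC_012950) showed the same low replicate 1, with 2310, 4501 and 3895 FPKM in cold libraries and 1777, 4090 and 4210 FPKM in control libraries. LNC_000396 (XLOC_015935) was at 3322, 2519 and 3427 FPKM in cold libraries and at 4259, 2421 and 1877 FPKM in control libraries, and LNC_000391 (XLOC_015928) was at 870.7, 670.1 and 885.8 FPKM in cold libraries and at 809.7, 591.5 and 510.9 FPKM in control libraries. Among antisense lncRNAs LNC_000037 (XLOC_002219) was at 9461, 7503 and 7456 FPKM in cold libraries, against 7311, 9573 and 8428 FPKM in control libraries. LNC_000955 (XLOC_035035) was at 49.9, 45.2 and 84.2 FPKM in cold libraries and varied from 8.27 to 198.8 FPKM over the control libraries. The groups overlapped for each of these transcripts, which does not show that their levels were equal.

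The 4 steadiest lncRNAs with a mean of at least 1 FPKM, by the range of log2 values over the 6 libraries, were 3 antisense lncRNAs and 1 lincRNA. LNC_000659 (XLOC_024607) was at 1.04, 1.07 and 0.988 FPKM in cold libraries and at 1.01, 0.943 and 0.989 FPKM in control libraries. LNC_000486 (XLOC_018541) was at 40.7, 32.9 and 37.2 FPKM in cold libraries and at 41.2, 41.0 and 39.0 FPKM in control libraries. The lincRNA LNC_000612 (XLOC_022899) was at 1.72, 1.99 and 1.68 FPKM in cold libraries and at 1.59, 1.49 and 1.59 FPKM in control libraries. Every cold value of LNC_000612 lay above every control value, by 1.14-fold on the log2(FPKM + 0.1) scale (limma adjusted p = 0.692). LNC_000037, the most abundant antisense lncRNA, ranked 3 by this measure, so the steady lncRNAs included low and high levels. LNC_000014 (XLOC_000756) was also among the 5 most abundant antisense lncRNAs, at 46.4, 32.1 and 42.0 FPKM in cold libraries and 42.9, 37.8 and 36.0 FPKM in control libraries.

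Most calls were the sole listed transcript of a locus, 10 of the 12 rises and 28 of the 32 falls, while 749 of the 1315 tested lncRNAs were. Cufflinks, a tool the submitters' processing notes name, shares out the fragments of each locus over the transcripts there. The other 6 calls rest on that division among listed transcripts. Whether a locus also holds transcripts that are not listed is not given. Calls of sole listed transcripts, and the locus sums and shares below, may therefore rest on such a division too. In XLOC_030014, a lincRNA locus with 5 listed transcripts, LNC_000804 was at 1.61, 2.06 and 2.01 FPKM in cold libraries and at 9.41, 11.4 and 9.84 FPKM in control libraries, with little spread in either group (5.19-fold lower, log2 change −2.38, SE 0.249, limma adjusted p = 0.00708). It held 7.02%, 9.53% and 6.98% of the summed FPKM of the locus in the cold libraries, against 24.0%, 29.9% and 27.8% in the control libraries. Its neighbour LNC_000800 held 18.8%, 23.3% and 20.4% in the cold libraries, against 9.31%, 7.79% and 9.83% in the control libraries, so the makeup of the locus differed between the groups without overlap. The locus sum was 24.4 ± 3.80 FPKM in cold and 37.6 ± 1.98 FPKM in control leaves (SD, n = 3 each), 0.63 lower on the log2 scale, with a limma adjusted p of 0.117 over 948 locus sums. LNC_000804 was called without each of 5 libraries in turn and lost without control replicate 2 (limma adjusted p = 0.0595).

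**Figure D4:**
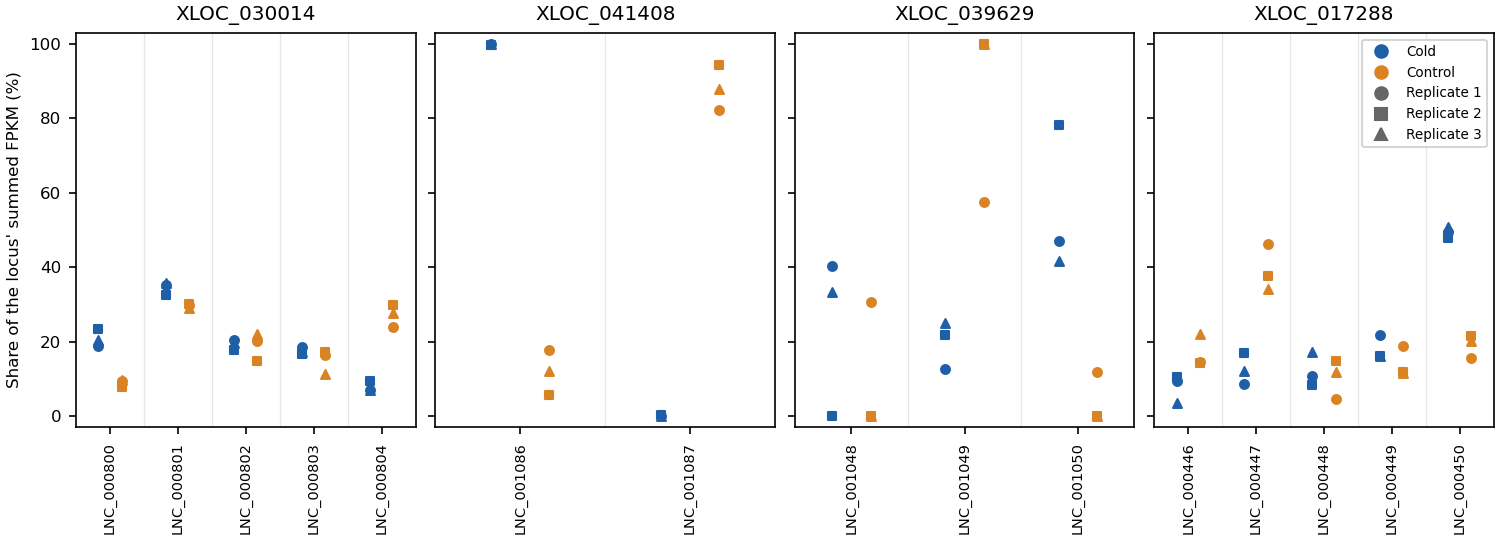
Share of the summed FPKM of the locus, in percent, held by each listed transcript of 4 loci with a called transcript, in cold (blue, left) and control (orange, right) libraries with the symbol giving the replicate. In XLOC_041408 the cold libraries lie near 100% for LNC_001086 and near 0% for LNC_001087, while the control libraries lie at 5.66% to 17.7% for LNC_001086.

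Larger shifts were seen in loci of low level. In XLOC_041408, with 2 lincRNAs, LNC_001087 was at 4.55e-07, 0.000571 and 2.64e-06 FPKM in cold libraries and at 1.19, 1.60 and 0.434 FPKM in control libraries, while LNC_001086 was at 0.452, 0.143 and 0.228 FPKM in cold libraries and at 0.256, 0.0958 and 0.0605 FPKM in control libraries. LNC_001087 fell (limma adjusted p = 0.0371), whereas LNC_001086 overlapped between the groups. The locus sum was lower in the cold without overlap, at 0.452, 0.143 and 0.228 FPKM in cold libraries and 1.45, 1.69 and 0.495 FPKM in control libraries (log2 change −1.74). In the antisense locus XLOC_039629, with 3 transcripts, LNC_001050 rose to 1.07, 1.17 and 1.01 FPKM in cold libraries, against 0.216, 1.68e-05 and 2.85e-05 FPKM in control libraries (limma adjusted p = 0.0398). LNC_001049 of the same locus was at 0.287, 0.328 and 0.610 FPKM in cold libraries and at 1.06, 1.12 and 1.31 FPKM in control libraries (limma adjusted p = 0.0802). The locus sum did not separate, at 2.28, 1.50 and 2.44 FPKM in cold libraries and 1.83, 1.12 and 1.31 FPKM in control libraries. LNC_000696, 1 of 3 antisense transcripts of XLOC_026474 and named here as the remaining rise, was at 0.431, 0.625 and 0.755 FPKM in cold libraries and at 0.000406, 0.000389 and 0.000408 FPKM in control libraries, while its locus summed to 1.36, 0.933 and 1.10 FPKM in cold libraries and to 0.992, 1.24 and 0.918 FPKM in control libraries. In the cold libraries its neighbour LNC_000698 was at 0.788, 0.000121 and 5.48e-05 FPKM. LNC_001048 of XLOC_039629 was at 0.923, 1.44e-05 and 0.813 FPKM there. The division among transcripts thus differed between cold libraries in both loci. The locus sums of all 3 loci were not called (limma adjusted p = 0.0860, 0.320 and 0.871).

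Some loci held transcripts on both sides. Of 185 loci with at least 2 tested transcripts, 4 held one transcript higher and another lower in the cold, each at least 2-fold without overlap between the groups. Among all 566 tested transcripts of loci with several, 17 were higher and 48 lower by this measure. XLOC_039629 was the one of them with a call. In XLOC_057115, with 6 listed transcripts, LNC_001455 was at 0.000261, 0.000544 and 0.281 FPKM in cold libraries and at 0.356, 0.864 and 1.05 FPKM in control libraries, while LNC_001457 was at 0.193, 0.414 and 0.00785 FPKM in cold libraries and at or near 0 in the control libraries. In XLOC_028004, LNC_000741 was at 0.637, 0.822 and 0.708 FPKM in cold libraries and at 0.586, 0.0965 and 0.125 FPKM in control libraries, while LNC_000742 was near 0 in all cold libraries and at 0.000314, 0.641 and 0.669 FPKM in control libraries. In XLOC_019567, LNC_000519 averaged 0.492 ± 0.107 FPKM in cold and 0.168 ± 0.146 FPKM in control leaves and LNC_000520 averaged 0.0618 ± 0.107 and 0.226 ± 0.0634 FPKM (SD, n = 3 each). All these named transcripts are antisense, and those of the last 3 loci were not called.

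The remaining called transcripts of shared loci were the falls LNC_000863 and LNC_000447. The lincRNA LNC_000863 of XLOC_032368 was at 0.00186, 0.000198 and 0.590 FPKM in cold libraries and at 2.16, 1.59 and 3.67 FPKM in control libraries (limma adjusted p = 0.0492), and its partner LNC_000864 was at 0.176, 0.241 and 0.304 FPKM in cold libraries and at 0.684, 1.89 and 3.09 FPKM in control libraries. Both lay lower in the cold without overlap, and the locus sum fell, at 0.178, 0.242 and 0.894 FPKM in cold libraries and 2.84, 3.48 and 6.77 FPKM in control libraries (limma adjusted p = 0.0330 over 948 locus sums). In XLOC_017288, which holds 2 antisense and 3 lincRNA transcripts, the antisense LNC_000447, named after its values were seen, was at 0.167, 0.289 and 0.0789 FPKM in cold libraries and at 1.71, 1.28 and 1.00 FPKM in control libraries. Its share of the locus was 8.57%, 16.8% and 12.1% in the cold libraries against 46.3%, 37.7% and 34.0% in the control libraries, while the lincRNA LNC_000450 held 49.5%, 48.0% and 50.7% in the cold libraries against 15.6%, 21.4% and 20.3% in the control libraries. The level of LNC_000450 itself averaged 0.706 ± 0.334 FPKM in cold and 0.634 ± 0.0833 FPKM in control leaves (SD, n = 3 each, log2 change 0.04, limma adjusted p = 0.977). The locus sum was lower in the cold without overlap and was not called, at 1.95, 1.72 and 0.650 FPKM in cold libraries and 3.69, 3.40 and 2.95 FPKM in control libraries (limma adjusted p = 0.0951).

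Summed over loci, 17 of 948 rose in the cold (1.79%) and 53 fell (5.59%) by limma. Locus sums were tested on the values as deposited only, with no scaling between libraries and no library left out. Of these 70 loci, 39 held a called transcript and 31 did not. In 30 of these 31 the locus has a single listed transcript, so the sum is that transcript's own value. The remaining 1, named after its values were seen, was the antisense locus XLOC_016321. Its sum was at 6.37, 4.78 and 6.08 FPKM in cold libraries, against 2.63, 3.01 and 2.42 FPKM in control libraries (log2 change 1.06, SE 0.235, limma adjusted p = 0.0405). Its transcript LNC_000410 was at 0.0795, 0.0827 and 4.81 FPKM in cold libraries, while LNC_000411 was at 4.92, 4.22 and 0.0454 FPKM there, so the transcript listed high in cold replicate 3 was the one listed low in the other two. In the control libraries LNC_000410 was at 0.110, 0.104 and 0.109 FPKM and LNC_000411 at 1.91, 2.33 and 2.01 FPKM. Neither transcript was called (limma adjusted p = 0.557 and 0.833).

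**Figure D5:**
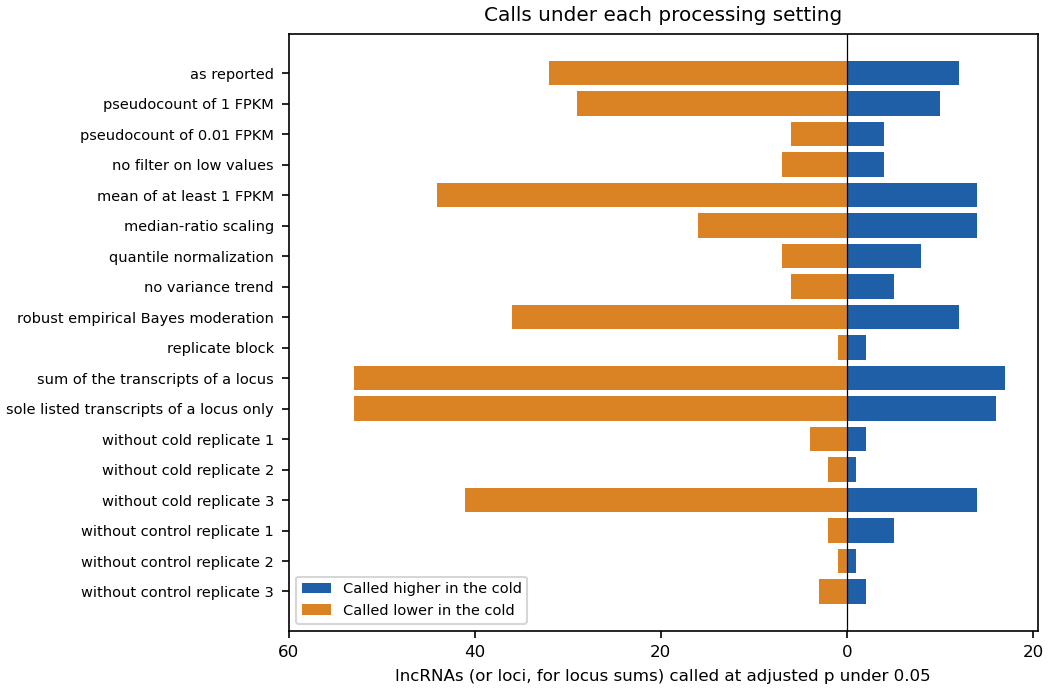
Number of lncRNAs called higher (blue, to the right) and lower (orange, to the left) in the cold by limma at an adjusted p under 0.05, for the values as reported and each alternative. The bars reach 12 and 32 as reported, 14 and 41 without cold replicate 3, and at most 5 on either side without any other single library.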

How the data were processed

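Per the labels' protocols, Trizol RNA was depleted of ribosomal RNA and made into directional libraries. The submitters' processing notes name TopHat2 2.0.9 and Cufflinks 2.1.1, and these sources give no genome build, annotation or lncRNA classification. Values deposited are FPKM per transcript, made by the authors, with a class and a locus identifier, and depth is unknown. The 6 Kongyu131 libraries were used as deposited on log2(FPKM + 0.1), keeping means of at least 0.1 FPKM, and tested with limma 3.58.1 (R 4.3.3, empirical Bayes with a mean-variance trend, two-sided, Benjamini-Hochberg adjustment over 1315 transcripts, calls at an adjusted p under 0.05). The procedure was run on simulated data, with noise drawn independently for each transcript and library. Those data held no shift of a whole library, so they do not bear on how the calls move with scaling. Replicate numbers were not stated to pair libraries, so no block was used. Alternatives changed the pseudocount, filter, scaling, variance model, block, unit (locus sums) or left out a library.

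Transcripts and lists were chosen with earlier results of these data known. Named transcripts were the 10 largest called rises and falls and the 8 largest rises and falls without overlap (each with at least 1 FPKM in the higher group), those at 0 in one group and at least 1 FPKM in each library of the other, the 5 most abundant and 5 lowest p of each class, the 4 steadiest, and loci whose transcripts moved apart by at least 2-fold. Others are said to be named after their values were seen.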

Additional observations from a re-analysis of the deposited data

How the results depend on the processing

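All 44 calls kept their sign with both scalings between libraries. The other alternatives that tested them as transcripts could not change a sign, since the groups did not overlap for any of the 44. The number of calls did not hold. It was 44 as reported, 39 with a pseudocount of 1 FPKM and 10 with a pseudocount of 0.01 FPKM. It was 11 without a filter on low values and 58 of 529 tested at a mean of at least 1 FPKM. Without the variance trend it was 11, and with robust empirical Bayes moderation 48. With median-ratio scaling it was 30, and with quantile normalization 15. It was 70 for locus sums and 69 with sole transcripts of a locus only, an alternative chosen after seeing the data. Fewer were tested there, 948 and 749, against 1315 as reported. Of the 70 loci, 16 rises and 52 falls had a single listed transcript, whose values summing does not change. The causes were not tested. Leaving out each library in turn gave 2 to 55 calls. LNC_001213 and LNC_000185 were called in all 6 of these fits, while 12 of the 44 were called in none. For LNC_001213, listed at 0 in every control library, leaving out a control could not change the log2 change. LncRNAs at least 2-fold higher in the cold without overlap numbered 66 as reported, 17 with a pseudocount of 1 FPKM, 32 at a mean of at least 1 FPKM and 82 to 112 when each library was left out in turn. Those lower numbered 151 as reported, 43 and 76 under the same pseudocount and filter, and 155 to 206 without each library in turn. With a library left out, no overlap is easier to meet, so these counts cannot be set against those as reported. With the replicate number as a block 3 transcripts were called. The numbers were not taken as pairs because nothing states that they pair libraries. Across transcripts, deviations of same-numbered libraries from their group means had r = −0.0125, 0.0275 and −0.113. For differently numbered libraries r ran from −0.118 to 0.115. These correlations do not show that the libraries were unpaired. With 3 libraries a group and unknown depth, an uncalled transcript is not shown to be equal between the groups.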
